A study of Mus musculus with 9 samples.

Results

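The lysosome genes described here are the 128 rows of the deposited liver gene table that carry the KEGG pathway entry Lysosome, out of 36119 genes in all. They comprised 15 cathepsins, 46 other hydrolases and their activators, 24 membrane proteins, 10 proton pump subunits, 2 soluble proteins without enzyme activity, and 31 genes that sort enzymes to the lysosome or carry them there. Of these, 124 had enough reads to be tested, and the cathepsin Ctsg and the hyaluronidases Hyal4, Hyal5 and Hyal6 did not. Messenger RNA was sequenced from whole livers of 9 male wild-type C57BL/6J mice aged 6 to 8 weeks, 3 in each of 3 groups and 1 mouse in each library. Cont mice received corn oil by gavage, the vehicle of oleanolic acid. OA mice received oleanolic acid, a plant triterpenoid used here to model cholestatic liver injury, at 295.5 mg/kg by the sample labels and 295.92 mg/kg by the protocol text. ZnPP+OA mice received the same oral dose 2 h after 20 mg/kg of intraperitoneal zinc protoporphyrin (ZnPP), an inhibitor of heme oxygenase-1. Mice without ZnPP received saline in its place, dosing ran for 4 days, and mice were fasted for 12 h before collection. No group received ZnPP alone, so an effect of ZnPP itself cannot be told apart from its effect on the OA response.

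Lysosomes are acidic organelles that break down proteins, sugars, lipids and nucleic acids delivered by endocytosis, phagocytosis and autophagy. Their hydrolases are made in the endoplasmic reticulum, tagged with mannose 6-phosphate and carried from the Golgi by receptors in clathrin-coated vesicles, and they work at the low pH set by the vacuolar ATPase (V-ATPase), a proton pump with a membrane sector (V0) and a cytosolic sector (V1). In liver, hepatocytes use them in autophagy and in bile and lipid turnover, and Kupffer cells, the resident macrophages, are rich in them because they clear particles and dying cells.

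The libraries held 32639438 to 85060187 counts, and 44 genes of mitochondrial DNA and its nuclear copies took 17.4% of them in OA 3 and 92.0% in Cont 2. This share was 53.7% to 92.0% in Cont, 17.4% to 47.5% in OA and 74.1% to 84.3% in ZnPP+OA livers. The remaining genes therefore had 4946748 to 23122403 counts in Cont, 31232063 to 70295836 in OA and 9417867 to 12713311 in ZnPP+OA livers. OA livers overlapped neither other group in the share or in these counts, and the part of both in the results was not tested. Cont 2 had the fewest of these counts and OA 3 the most. Cont 1 also stood apart, with summed normalised levels of 8 hepatocyte genes of 54875 CPM (counts scaled to library size) against 23300 and 16886 in the other Cont livers. CPM values below were scaled by trimmed mean of M values (TMM), fold changes are on the log2 scale ± standard error (SE) with n = 3 livers in each group, and a gene was called at an edgeR adjusted p under 0.05 over 18895 genes.

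OA livers had higher transcript levels of a set of lysosome genes than Cont livers. In edgeR's quasi-likelihood test, 18 of the 124 members rose (14.5%, against 2.40% of all genes tested) and 2 fell (1.61%, against 2.80%). The median log2 fold change of the members was 0.48, and that of all genes tested was 0.09. The 3 OA livers lay above all 3 Cont livers for 42 members (33.9%, against 18.5% of all genes) and below them for 6 (4.84%, against 10.6%). The genes that rose were the proteases Lgmn, Ctsb, Ctsd, Ctss and Ctsz, the glycosidases Gla and Fuca2, the acid ceramidase Asah1, the acid phosphatase Acp5, the membrane proteins Cd63, Cd68, Laptm5, Slc11a1 and Slc17a5, the proton pump subunit Atp6v0a1, and the sorting genes Ap1s1, Ap1s2 and M6pr. The 2 that fell were Ctsw and Hyal3. Leaving out single libraries changed the number that rose to between 4 and 20, with 4 left without OA 2, 4 without OA 3 and 10 without Cont 2. Over all genes these 3 fits called 100 of 20172, 119 of 20276 and 271 of 20581 higher, against 454 of 18895 with every library. With Cont 1 and Cont 2 left out together, which leaves 1 Cont liver, the member median was 0.44 and that of all genes 0.16. Scaling by library totals alone moved the median of all genes to 1.48 and that of the members to 1.84, so the difference between members and all genes was 0.37 on that scale and 0.39 on the TMM scale. By library totals 46 members rose and 1 fell, and over all genes 2837 rose and 209 fell. With the size factors of DESeq2 in the same test, 14 members rose and 3 fell, and over all genes 316 rose and 634 fell, against 454 and 530 with TMM. In whole livers, a change in the number of cells of a type and a change in RNA per cell cannot be told apart.

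ZnPP+OA livers had lower levels of part of this set than OA livers. In edgeR 8 members, Lgmn, Ctsb, Ctss, Ctsz, Cd68, Laptm5, Ap1s1 and Ap1s2, fell (6.45%, against 1.26% of all genes) and 0 rose (against 1.60%). An unadjusted p under 0.05 was found for 41 of the 124 members and for 3419 of the 18895 genes, and DESeq2 called 4 members higher and 15 lower, against 1000 and 627 of all genes. The median of the members was -0.31 and that of all genes -0.07. The ZnPP+OA livers lay below the OA livers for 40 members (32.3%, against 19.2%) and above them for 12 (9.68%, against 13.6%). All 8 genes that fell also rose in OA against Cont, and the 2 comparisons share the same 3 OA livers, so their values stand side by side below and are not independent. The number that fell was 13 without Cont 1, 3 without ZnPP+OA 1, 1 without OA 2, OA 3 or ZnPP+OA 3, and 0 without ZnPP+OA 2. Over all genes 547 fell without Cont 1, 107 without ZnPP+OA 1 and 6 without ZnPP+OA 2. Without OA 2, OA 3 or ZnPP+OA 3 the number over all genes was 13, 22 and 35, against 239 with every library.

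**Figure D1:**
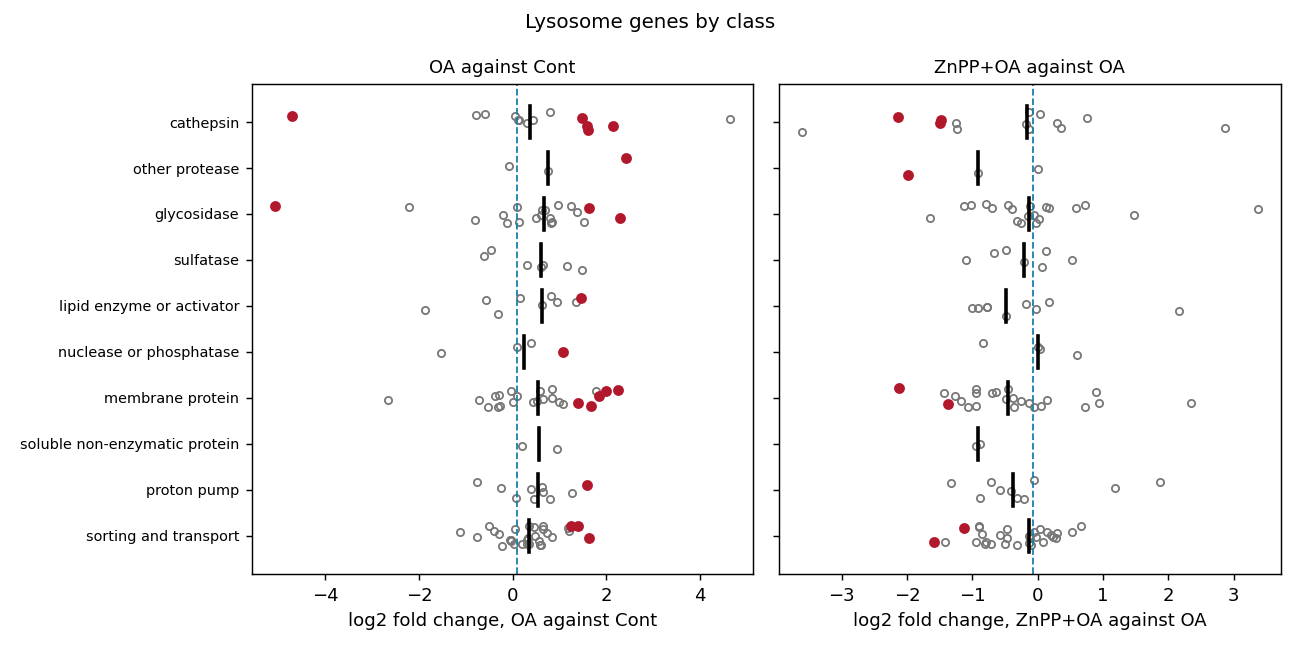
Log2 fold changes of the 124 tested lysosome genes by class (rows), in OA against Cont on the left and ZnPP+OA against OA on the right, with filled points for genes past the edgeR threshold, open points for the others, black bars for class medians and a dashed line for the median of all genes tested. The filled points number 18 to the right and 2 to the left in OA against Cont, and 8 to the left in ZnPP+OA against OA.

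The promoters of lysosome genes are known to hold a palindromic site for the transcription factor TFEB and its relatives, which switch on lysosome genes together, so the core of that site, TCACGTGA, and the shorter E-box that it contains, CACGTG, were searched on both strands in RefSeq promoter windows (build GRCm38.p6, 250 bases before to 50 after each start site). Of the members, 101 had such a window. TCACGTGA was in the windows of 10 members (9.90%) and of 304 of all 27025 genes with a window (1.12%), and CACGTG in those of 24 members (23.8%) and of 2187 genes (8.09%). These are descriptions of sequence and not of binding. Of the 18 genes that rose in OA livers 15 had a window, 2 of these with TCACGTGA, Ctsd and Gla, and 4 with CACGTG, which adds Lgmn and Ap1s2. The 30 bases around each match are printed 5′ to 3′ on the strand of the gene, with the match in capitals, first for the 4 genes that rose and then for the 8 other members with TCACGTGA, to show that the longer match occurred in genes that were called and in genes that were not. The Lgmn match lies before 1 of its RefSeq start sites. Ctsa and Igf2r each held another TCACGTGA match that is not printed, and Ctsd another CACGTG match that is not printed.
Ctsd, chr7:142387908-142387937, minus strand: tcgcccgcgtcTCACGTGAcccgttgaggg
Gla, chrX:134601215-134601244, minus strand: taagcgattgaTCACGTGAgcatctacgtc
Gla, chrX:134601182-134601211, minus strand: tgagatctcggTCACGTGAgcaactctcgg
Lgmn, chr12:102439124-102439153, minus strand: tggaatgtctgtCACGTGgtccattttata
Ap1s2, chrX:163908890-163908919, plus strand: ccgcttccgggtCACGTGgccagacttccg
Ctsa, chr2:164833749-164833778, plus strand: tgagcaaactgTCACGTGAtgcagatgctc
Cd164, chr10:41519401-41519430, plus strand: cgccgggctgcTCACGTGAccggcgcgcgc
Cln3, chr7:126583340-126583369, minus strand: cacgggtactgTCACGTGAcccccaacctg
Mcoln1, chr8:3500462-3500491, plus strand: aggcgccccgcTCACGTGAccgcggcgcat
Atp6v0d1, chr8:105566050-105566079, minus strand: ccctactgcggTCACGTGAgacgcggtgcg
Gnptg, chr17:25240120-25240149, minus strand: ccggctgtcacTCACGTGAccgtgagaccc
Igf2r, chr17:12769737-12769766, minus strand: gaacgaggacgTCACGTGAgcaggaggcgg
Sumf1, chr6:108185577-108185606, minus strand: agcaccacaggTCACGTGAtctccatgggt

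**Figure D2:**
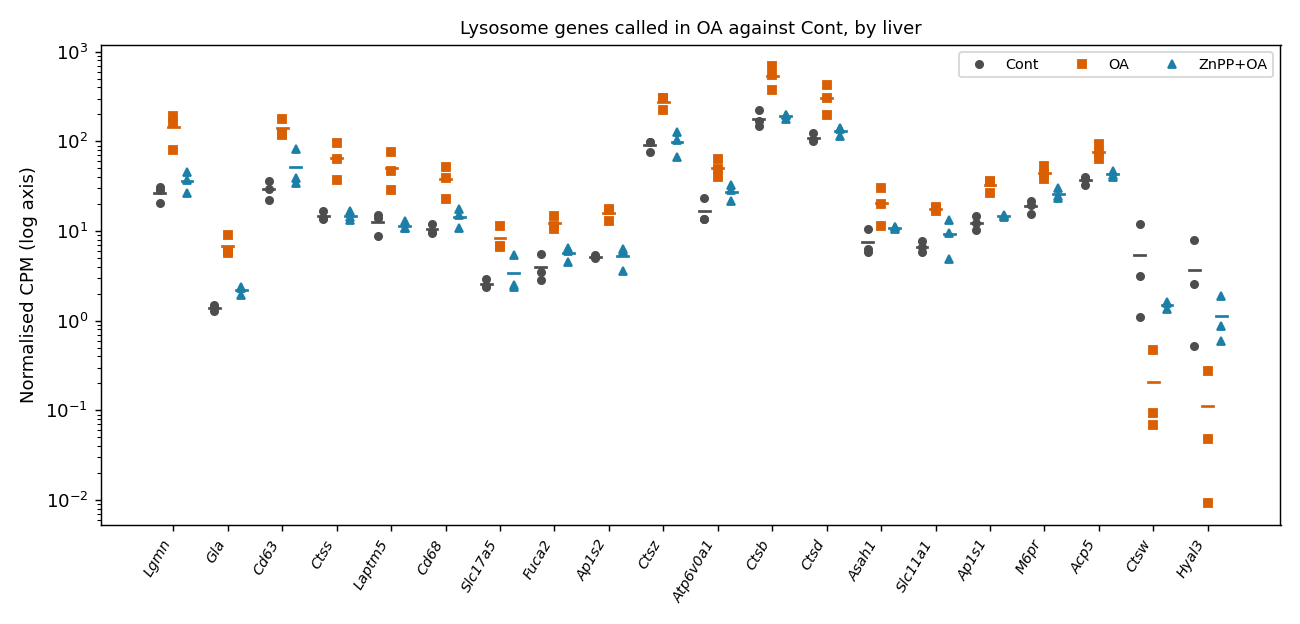
Normalised CPM (log axis) in each of the 9 livers for the 20 lysosome genes called in OA against Cont, ordered by log2 fold change, with circles for Cont, squares for OA, triangles for ZnPP+OA and a short bar for each group mean. In the 18 genes that rose, the OA livers lay above the Cont livers and above the ZnPP+OA livers.

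Among the cathepsins, the proteases that do most of the protein breakdown in lysosomes, 4 of 14 tested rose in OA livers, 1 fell and 9 did not pass the test. Over all genes tested 2.40% rose and 2.80% fell. The median of the 14 cathepsins was 0.37. Ctsb (ENSMUSG00000021939), a cysteine protease, was at 223, 148 and 167 CPM in Cont livers 1 to 3, at 376, 546 and 685 in OA livers and at 199, 180 and 195 in ZnPP+OA livers. Every OA liver was thus above every Cont and ZnPP+OA liver, and Ctsb rose by 1.58 ± 0.34 (adjusted p = 0.0193) and fell with ZnPP by 1.49 ± 0.34 (0.0341). Ctsd (ENSMUSG00000007891), the aspartic protease with the TCACGTGA match, was at 125, 103 and 100 CPM in Cont, 195, 306 and 424 in OA and 142, 115 and 138 in ZnPP+OA livers. Its OA livers also lay above all the others, with a change of 1.49 ± 0.34 (0.0248) in OA livers, whereas its change with ZnPP, -1.23 ± 0.34, did not pass the test (0.0744). Ctss (ENSMUSG00000038642), the cysteine protease with which antigen-presenting cells trim the invariant chain of MHC class II, stood at 13.5, 16.8 and 13.9 CPM in Cont, 37.3, 63.0 and 95.1 in OA and 13.3, 14.3 and 16.8 in ZnPP+OA livers. It rose by 2.15 ± 0.35 (0.00476) and fell with ZnPP by 2.14 ± 0.35 (0.00937), and its OA livers lay above the livers of both other groups. Ctsz (ENSMUSG00000016256), a carboxypeptidase, was at 98.1, 76.7 and 98.8 CPM in Cont, 224, 302 and 305 in OA and 126, 67.8 and 104 in ZnPP+OA livers. It rose by 1.60 ± 0.33 (0.015) and fell with ZnPP by 1.48 ± 0.32 (0.0301).

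The Ctss call in OA against Cont held with each of the 9 libraries left out in turn, with a highest adjusted p of 0.0233. Ctsb was not called without Cont 2 (0.0527), OA 2 (0.0821) or OA 3 (0.0958), Ctsd without Cont 2 (0.0622), Cont 3 (0.0521), OA 2 (0.0927) or OA 3 (0.126), and Ctsz without OA 2 (0.072) or OA 3 (0.0667). In ZnPP+OA against OA, Ctss was not called without ZnPP+OA 2 (0.0745). Ctsb and Ctsz were each not called there without OA 2, OA 3 or any 1 of the ZnPP+OA livers, with adjusted p of up to 0.183 without OA 3 for Ctsb and up to 0.172 without ZnPP+OA 2 for Ctsz. Exons of Ctsb overlap the squalene synthase gene Fdft1 on the opposite strand and exons of Ctsd overlap the gene model Gm49369 on the same strand. The libraries were stranded, but it is not known whether counting used the strand, so reads of overlapping genes may be shared.

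The one cathepsin that fell was Ctsw (ENSMUSG00000024910), which is made by natural killer and cytotoxic T cells. It had 36, 198 and 224 counts in Cont, 51, 10 and 20 in OA and 67, 46 and 49 in ZnPP+OA livers, or 1.09, 12.1 and 3.19 CPM, 0.468, 0.0683 and 0.0928 CPM, and 1.58, 1.62 and 1.34 CPM. Its change was -4.70 ± 1.01 (0.0194) in OA against Cont, with Cont 2 by far the highest, and it was not called without Cont 2 (0.0981), OA 2 (0.098) or OA 3 (0.1), or by library totals. Summed levels of 8 lymphocyte genes were 6.23 to 11.8 CPM in Cont, 1.24 to 1.74 in OA and 4.13 to 6.64 in ZnPP+OA livers, and 1 of the 8 was called in OA against Cont, lower. Their part in the Ctsw result was not tested.

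Among the cathepsins that were not called, Ctsl, Ctsa, Ctsh and Ctsc changed less in OA against Cont than those that rose, and Ctsj changed more. Ctsj had 13, 0 and 0 counts in Cont, 104, 451 and 1309 in OA and 17, 12 and 0 in ZnPP+OA livers. Its changes were 4.65 ± 1.63 (adjusted p = 0.119) in OA against Cont and -3.61 ± 1.52 (0.228) in ZnPP+OA against OA. Ctsl, a cysteine protease, was at 259, 105 and 215 CPM in Cont, 133, 242 and 341 in OA and 216, 175 and 262 in ZnPP+OA livers, and all 3 groups overlapped (0.31 ± 0.42, adjusted p = 0.728). Ctsa, the carboxypeptidase that shields neuraminidase and beta-galactosidase and whose promoter window holds TCACGTGA, ranged from 111 to 168 CPM in Cont and 161 to 202 in OA livers (0.44 ± 0.29, 0.413). Ctsh, an aminopeptidase, gave 0.05 ± 0.35 (0.954). Ctsc, which activates the granule proteases of leukocytes, gave 0.79 ± 0.35 (0.212) in OA against Cont and -1.25 ± 0.35 (0.0845) in ZnPP+OA against OA, with all ZnPP+OA livers below all OA livers. Ctsl, Ctsa, Ctsh, Ctsc and Ctsj were singled out after their values were seen. As a share of FPKM (a read level corrected for gene length and library size) outside the mitochondrial genes, the 15 cathepsins together made up 0.124% to 0.183% in Cont, 0.353% to 0.527% in OA and 0.17% to 0.233% in ZnPP+OA livers. Within the FPKM of the lysosome genes, Ctsz made up 7.73% to 8.27% in Cont, 11.8% to 13.8% in OA and 5.9% to 9.68% in ZnPP+OA livers.

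**Figure D3:**
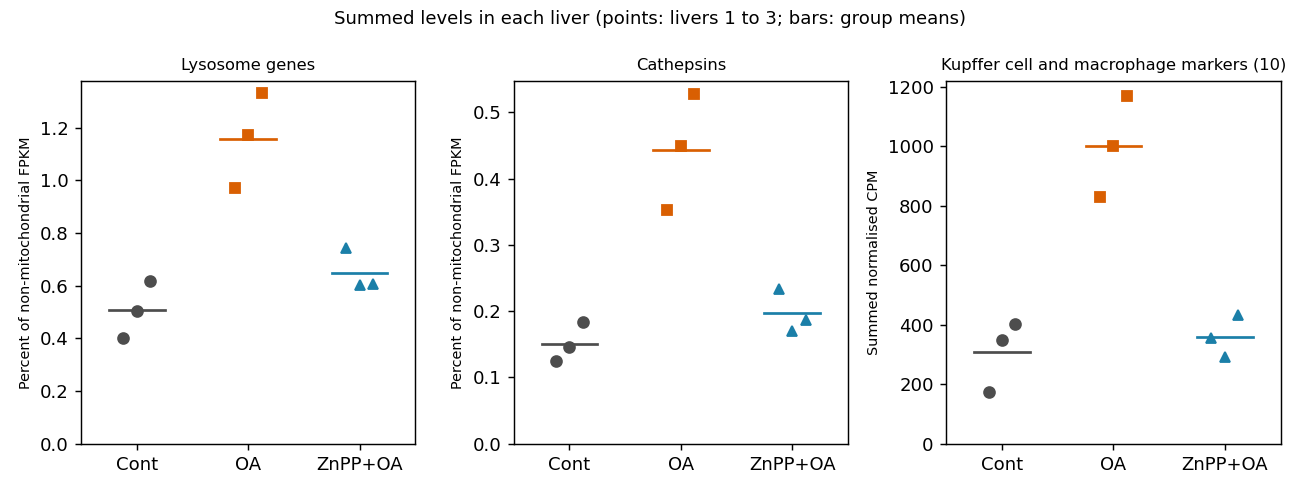
Summed levels in each liver: the 128 lysosome genes and the 15 cathepsins as a percentage of FPKM outside mitochondrial genes, and 10 Kupffer cell and macrophage marker genes as summed normalised CPM, with points for livers 1 to 3 and bars for group means. In all 3 panels the OA livers lie above the livers of both other groups, at 0.971% to 1.33% for the lysosome genes against 0.401% to 0.617% in Cont and 0.601% to 0.741% in ZnPP+OA.

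Among the 43 tested hydrolases and activators other than cathepsins, 5 rose in OA livers and 1 fell (2.40% and 2.80% of all genes did). The other 37 did not pass the test, and the median of the 43 was 0.62. Only Lgmn of the 43 fell with ZnPP (1.26% of all genes did), where the median was -0.18. Lgmn (ENSMUSG00000021190), the asparaginyl endopeptidase that matures cathepsins, was at 20.5, 31.4 and 28.4 CPM in Cont, 79.7, 161 and 191 in OA and 37.1, 26.3 and 45.6 in ZnPP+OA livers. It had the smallest adjusted p of all members, rising by 2.43 ± 0.38 or 5.39-fold (0.0041), and fell with ZnPP by 1.99 ± 0.37 (0.0168). The rise was called with each library left out in turn (highest adjusted p 0.0195), while the fall was not called without OA 2 (0.0856), OA 3 (0.0829) or ZnPP+OA 1 (0.059), 2 (0.113) or 3 (0.055). The other proteases of the list, Tpp1 and Napsa, did not pass the test. Tpp1, a tripeptidyl peptidase, was at 37.6, 27.3 and 36.7 CPM in Cont and 28.0, 27.3 and 41.0 in OA livers (-0.08 ± 0.28, 0.91), and Napsa, an aspartic protease, gave 0.75 ± 0.48 (0.395).

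Of 20 tested glycosidases, which remove sugars from glycoproteins and glycolipids, Gla and Fuca2 rose, Hyal3 fell and 17 did not pass the test. For all genes tested the shares that rose and fell were 2.40% and 2.80%. Gla (ENSMUSG00000031266), the alpha-galactosidase missing in Fabry disease, with 2 TCACGTGA matches in its window, was at 1.27, 1.46 and 1.48 CPM in Cont, 5.67, 6.06 and 8.98 in OA and 2.29, 1.94 and 2.35 in ZnPP+OA livers. The 3 groups did not overlap one another, and the OA change was 2.30 ± 0.44 (0.0116) on 24 to 104 counts in Cont livers. Its change with ZnPP was -1.65 ± 0.43 (0.0609). Fuca2 (ENSMUSG00000019810), an alpha-fucosidase, was at 2.87, 3.48 and 5.57 CPM in Cont, 10.6, 11.4 and 14.9 in OA and 5.95, 4.55 and 6.42 in ZnPP+OA livers, a change of 1.63 ± 0.37 (0.024) and then -1.13 ± 0.36 (0.119). Gla was not called without OA 2 (0.0597) or OA 3 (0.1), and Fuca2 not without Cont 1 (0.0512), Cont 2 (0.068), OA 2 (0.0932) or OA 3 (0.135).

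Hyal3 (ENSMUSG00000036091), a hyaluronidase, had 265, 42 and 37 counts in Cont, 30, 7 and 2 in OA and 25, 25 and 70 in ZnPP+OA livers. In CPM these were 8.01, 2.56 and 0.527, then 0.275, 0.0478 and 0.00928, then 0.591, 0.882 and 1.91, so that the OA livers were lowest and Cont 1 highest. Its change of -5.08 ± 1.30 (0.041) was called in 2 of 9 fits that left out a library and not without Cont 1 (0.131), Cont 2 (0.0695), OA 2 (0.182), OA 3 (0.143) or ZnPP+OA 1 (0.0634), 2 (0.0652) or 3 (0.0586). Exons of Hyal3 overlap those of Hyal1 and Naa80 on the same strand, so its reads are uncertain. Hyal1, a hyaluronidase at 2.26 to 24.5 CPM in Cont and 1.64 to 3.27 in OA livers, gave -2.22 ± 0.64 (0.0643) with overlapping groups. Gaa, the acid alpha-glucosidase that degrades glycogen, was lower in all OA livers (23.8, 19.2 and 26.5 CPM) than in all Cont livers (46.6, 31.9 and 43.6) and did not pass the test (-0.81 ± 0.27, 0.102). Hexa, the alpha subunit of beta-hexosaminidase, was higher in all OA livers (30.4, 39.4 and 48.1) than in all Cont livers (11.5, 19.0 and 19.5) and also missed the threshold (1.24 ± 0.34, 0.0527). Hyal1, Gaa and Hexa were singled out after their values were seen.

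None of the 7 sulfatases passed the test in OA against Cont or in ZnPP+OA against OA, where the smallest adjusted p was 0.127 and 0.324 in edgeR and 1 and 0 of them had an unadjusted p under 0.05. Arsa, which degrades sulfatides, gave 0.60 ± 0.35 (0.346) in OA against Cont, and Galns, which acts on keratan sulfate, 1.48 ± 0.53 (0.127). Of the 9 lipid enzymes and activators 1 rose (2.40% of all genes did), Asah1 (ENSMUSG00000031591), the acid ceramidase that splits ceramide into sphingosine and fatty acid. It went from 10.5, 5.79 and 6.33 CPM in Cont to 11.3, 20.1 and 30.5 in OA, with 11.2, 10.5 and 11.1 in ZnPP+OA livers. OA 1 was barely above Cont 1. The change of 1.45 ± 0.38 was close to the threshold (0.0472) and not called without Cont 2 (0.117), Cont 3 (0.0964), OA 2 (0.139), OA 3 (0.246) or any 1 of the ZnPP+OA livers (0.0681 to 0.0727). Psap, the precursor of the saposins that present lipids to these enzymes, was at 216, 106 and 183 CPM in Cont and 189, 316 and 377 in OA livers (0.81 ± 0.36, 0.214), and Gm2a, the ganglioside activator, gave 0.63 ± 0.30 (0.243).

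Of 4 nucleases and phosphatases 1 rose (2.40% of all genes did), Acp5 (ENSMUSG00000001348), the tartrate-resistant acid phosphatase of osteoclasts and activated macrophages. It was at 32.5, 37.6 and 39.9 CPM in Cont, 63.1, 74.2 and 92.8 in OA and 39.8, 42.6 and 46.2 in ZnPP+OA livers, a change of 1.07 ± 0.27 (0.0397). It was not called without Cont 1 (0.0889), Cont 2 (0.0763), OA 2 (0.137), OA 3 (0.194) or any 1 of the ZnPP+OA livers (0.0597 to 0.0659). Acp2, the lysosomal acid phosphatase, gave 0.09 ± 0.29 (0.893), and Dnase2a, which degrades DNA of engulfed cells, 0.39 ± 0.32 (0.515).

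Of 24 lysosomal membrane proteins 5 rose in OA livers and 0 fell, with a median of 0.55, and 2 of them, Cd68 and Laptm5, fell with ZnPP. The shares of all genes tested were 2.40%, 2.80% and 1.26%. Cd63 (ENSMUSG00000025351), a tetraspanin of late endosomes and lysosomes, was at 22.1, 36.0 and 29.4 CPM in Cont, 118, 122 and 178 in OA and 81.5, 34.0 and 39.2 in ZnPP+OA livers. It rose by 2.26 ± 0.39 (0.00645), a call that held with each library left out (highest adjusted p 0.0305). ZnPP+OA 1 stood between the other ZnPP+OA livers and the OA livers, and the change with ZnPP, -1.44 ± 0.38, did not pass the test (0.0637). Cd68 (ENSMUSG00000018774), the macrophage glycoprotein macrosialin, was at 9.49, 9.88 and 12.0 CPM in Cont, 38.8, 22.8 and 51.4 in OA and 15.2, 10.9 and 17.5 in ZnPP+OA livers. It rose by 1.85 ± 0.34 (0.0101) and fell with ZnPP by 1.37 ± 0.34 (0.049). Laptm5 (ENSMUSG00000028581), a membrane protein of blood cell lysosomes, was at 8.79, 15.1 and 14.0 CPM in Cont, 28.4, 75.4 and 46.3 in OA and 13.0, 10.7 and 10.8 in ZnPP+OA livers. It rose by 1.99 ± 0.37 (0.0107) and fell by 2.12 ± 0.38 (0.0139).

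Slc11a1 (ENSMUSG00000026177), a metal transporter of phagocytes, had tightly grouped values of 6.62, 5.85 and 7.71 CPM in Cont and 18.5, 16.8 and 18.2 in OA livers, with 13.3, 4.83 and 9.51 in ZnPP+OA livers (1.40 ± 0.36, 0.0439). Slc17a5 (ENSMUSG00000049624), which exports sialic acid from lysosomes, went from 2.39, 2.44 and 2.92 CPM to 6.56, 6.84 and 11.5, with 5.46, 2.40 and 2.49 in ZnPP+OA livers (1.68 ± 0.45, 0.0492). The Slc17a5 call did not hold in any of the 9 fits that left out a library (0.0503 without ZnPP+OA 1 to 0.269 without OA 3), and the Slc11a1 call was kept only without ZnPP+OA 1 or ZnPP+OA 2 (0.147 without OA 3). Cd68 was not called in OA against Cont without OA 3 (0.0578) and Laptm5 not without OA 2 (0.0616). In ZnPP+OA against OA, Cd68 was called only without Cont 1 among the 9 fits (0.273 without OA 3), and Laptm5 missed the threshold when OA 2 (0.0842), OA 3 (0.0504) or 1 of ZnPP+OA 2 (0.0895) and ZnPP+OA 3 (0.0687) was dropped.

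The membrane glycoproteins Lamp1 and Lamp2, which line the lysosome, did not pass the test. Lamp1 was at 162, 75.5 and 96.7 CPM in Cont, 93.5, 223 and 281 in OA and 107, 94.7 and 108 in ZnPP+OA livers, so that OA 1 lay within the Cont range (0.84 ± 0.41, 0.258). Lamp2 was at 177, 63.5 and 83.1 CPM in Cont and 55.1, 95.5 and 109 in OA livers (-0.32 ± 0.40, 0.701). Mcoln1, the lysosomal calcium channel whose window holds TCACGTGA, gave -0.37 ± 0.33 (0.558). Lamp1, Lamp2 and Mcoln1 were singled out after their values were seen. Npc2, which binds cholesterol inside the lysosome, gave 0.95 ± 0.33 (0.118).

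The KEGG entry holds 10 proton pump genes, and 1 of them, Atp6v0a1, rose in OA livers, where 2.40% of all genes tested rose. The median of the 10 was 0.55 in OA against Cont and -0.37 in ZnPP+OA against OA, where 0 were called, with a smallest adjusted p of 0.0609 and 3 genes under 0.05 before adjustment. Atp6v0a1 (ENSMUSG00000019302), the a1 subunit of the V0 sector, was at 13.5, 13.8 and 23.1 CPM in Cont, 39.7, 63.8 and 49.1 in OA and 28.5, 32.5 and 21.5 in ZnPP+OA livers (1.59 ± 0.32, 0.015, and then -0.89 ± 0.32, 0.156). It was not called without Cont 2 (0.053), OA 2 (0.0896) or OA 3 (0.0565). Atp6v0c, the proteolipid that forms the rotor ring, came close in both comparisons, at 52.2, 32.1 and 36.1 CPM in Cont, 61.5, 103 and 127 in OA and 48.7, 36.3 and 30.5 in ZnPP+OA livers (1.27 ± 0.34, 0.052, and -1.33 ± 0.35, 0.0609). Its OA livers lay above the livers of both other groups.

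The other proton pump genes with a mean FPKM of at least 1 did not pass the test. Atp6v0b, another ring proteolipid, was at 20.9, 48.4 and 58.3 CPM in Cont and 77.5, 72.9 and 71.0 in OA livers (0.80 ± 0.35, 0.209). Tcirg1, the a3 subunit known from osteoclasts, was at 25.6, 127 and 182 CPM in Cont, 181, 163 and 97.7 in OA and 143, 129 and 151 in ZnPP+OA livers, with Cont 1 far below the other 8 libraries (0.40 ± 0.52, 0.717). Atp6v0a2 was likewise lowest in Cont 1 within its group, at 7.53 CPM against 17.9 and 25.5, and gave 0.08 ± 0.47 (0.942). Atp6v0d1, the subunit that joins the ring to the stalk, gave 0.64 ± 0.33 (0.283), the accessory subunit Atp6ap1 0.63 ± 0.29 (0.228), and the regulatory V1 subunit Atp6v1h 0.46 ± 0.29 (0.392). Atp6v0d2, the d2 subunit of osteoclasts and macrophages, was the one pump gene with a lower value in OA than in ZnPP+OA livers throughout, at 1.30, 0.998 and 1.58 CPM against 3.97, 3.10 and 7.16 (1.87 ± 0.55, 0.0902), and was singled out after its values were seen.

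Most V1 subunits lie outside the KEGG entry, and they were described with other V-ATPase genes outside it, the V0 subunits Atp6v0e and Atp6v0e2, the accessory genes Atp6ap2 and Rnasek and the assembly factors Tmem199, Ccdc115 and Vma21. Of these 16 genes tested, 1 rose in OA livers and 0 fell (2.40% and 2.80% of all genes did), and the median was 0.74. Atp6v1a, the subunit that holds the catalytic ATP sites, was at 7.04, 10.2 and 5.35 CPM in Cont, 14.2, 17.5 and 22.1 in OA and 7.58, 7.48 and 7.08 in ZnPP+OA livers (1.26 ± 0.33, 0.0457, and -1.28 ± 0.33, 0.0596). It was called without OA 1 or Cont 2 and in none of the other 7 fits that left out a library (up to 0.22 without OA 3). In ZnPP+OA against OA the median of the 16 was -0.78 and 0 were called, 5 of them with an unadjusted p under 0.05.

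**Figure D4:**
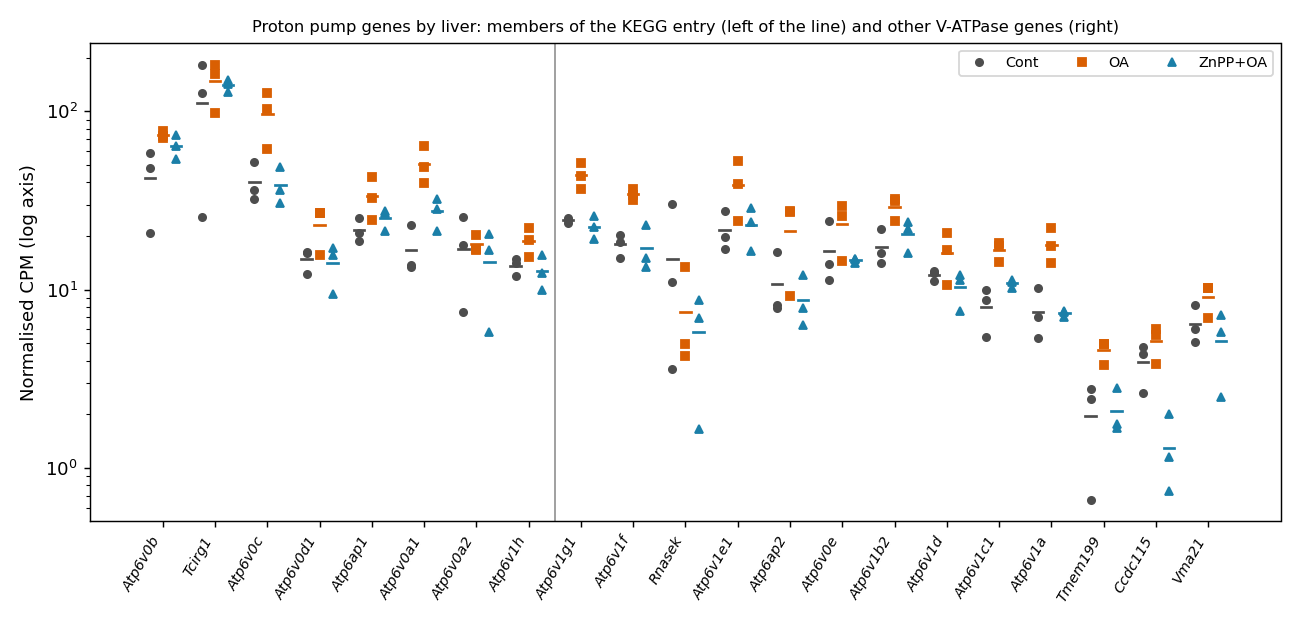
Normalised CPM (log axis) of V-ATPase genes with a mean FPKM of at least 1 in each liver, with the 8 members of the KEGG entry left of the line and 13 other V-ATPase genes to its right, circles for Cont, squares for OA, triangles for ZnPP+OA and short bars for group means. Atp6v0a1 and Atp6v1a were called in OA against Cont, and Tcirg1 shows the low value of Cont 1.

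Among the 31 genes of enzyme sorting and vesicle transport, 3 rose in OA livers and 0 fell (2.40% and 2.80% of all genes did). Their median was 0.35. Ap1s1 (ENSMUSG00000004849) and Ap1s2 (ENSMUSG00000031367) encode small subunits of AP-1, the clathrin adaptor between Golgi and endosomes. Ap1s1 was at 10.2, 14.9 and 12.2 CPM in Cont, 26.6, 35.8 and 34.9 in OA and 14.8, 15.3 and 14.3 in ZnPP+OA livers (1.39 ± 0.28, 0.014, and -1.13 ± 0.28, 0.0458). Ap1s2, with the CACGTG match, was at 5.11, 5.37 and 5.06 CPM in Cont, 12.8, 17.3 and 17.8 in OA and 6.33, 3.60 and 5.98 in ZnPP+OA livers (1.63 ± 0.33, 0.0156, and -1.59 ± 0.33, 0.0261). For both, the ZnPP+OA livers were near the Cont livers and every OA liver was above them. M6pr (ENSMUSG00000007458), the cation-dependent mannose 6-phosphate receptor, was at 15.4, 21.8 and 19.4 CPM in Cont, 37.9, 43.3 and 53.3 in OA and 30.0, 23.1 and 24.6 in ZnPP+OA livers, so that the 3 groups did not overlap (1.25 ± 0.28, 0.023, and -0.79 ± 0.28, 0.145). Igf2r, the other mannose 6-phosphate receptor, gave 1.19 ± 0.35 (0.0709), and was singled out after its values were seen.

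In OA against Cont, Ap1s1 was not called without OA 2 (0.082) or OA 3 (0.0715), Ap1s2 not without OA 2 (0.0884) or OA 3 (0.0854), and M6pr not without Cont 1 (0.0566), OA 2 (0.0927) or OA 3 (0.121). In ZnPP+OA against OA, Ap1s1 and Ap1s2 were each not called without OA 2, OA 3 or any 1 of the ZnPP+OA livers, with adjusted p of up to 0.228 and 0.141. Ap4b1, a subunit of the AP-4 adaptor, had 0 counts in Cont 1, Cont 2 and ZnPP+OA 2 and 637 to 1795 counts in the other 6 libraries, and its exons overlap the gene model Gm43064 on the same strand. It was singled out after its values were seen.

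No lysosome gene passed the test between ZnPP+OA and Cont livers. In edgeR 0 of 124 members were called in either direction, and 0% of all genes were, with a smallest adjusted p of 0.571 among the members and 6 of them under 0.05 before adjustment. DESeq2 also called 0 members. The median of the members was 0.17 and that of all genes -0.02, and the ZnPP+OA livers lay above the Cont livers for 13 members (10.5%, against 5.74% of all genes) and below them for 3 (2.42%, against 4.52%). The SE of this difference was 0.27 to 0.44 for the 18 genes that rose in OA livers, and differences of about 2 SE were not called, such as 0.82 ± 0.37 for Cd63 (adjusted p = 0.606), so a test that was not passed does not show equal levels.

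The 4 transcription factors of the TFEB family, which switch on lysosome genes, were not called. Tfeb was at 9.04, 10.4 and 12.2 CPM in Cont, 8.26, 5.16 and 6.28 in OA and 10.5, 12.0 and 13.4 in ZnPP+OA livers. Its OA livers lay below all others, with changes of -0.68 ± 0.31 (0.223) and then 0.87 ± 0.31 (0.158). Tfe3 gave 0.34 ± 0.28 (0.528) in OA against Cont, Tfec 1.04 ± 0.65 (0.388) and Mitf 1.23 ± 0.55 (0.214), with Mitf at 2.48, 1.10 and 1.38 CPM in Cont and 3.86, 4.09 and 3.75 in OA livers. These factors are regulated largely by their movement into the nucleus, which transcript levels do not show. Of 18 tested genes of nutrient sensing at the lysosome (Ragulator, Rag GTPases and mTORC1) 0 were called in OA against Cont, with 3 under 0.05 before adjustment, 0.122 as the smallest adjusted p and a median of 0.35. Of 22 genes of the autophagosome 0 were called, with 5 under 0.05 before adjustment, 0.0786 as the smallest adjusted p and a median of 0.06. The gene with that smallest p was Sqstm1, the autophagy receptor p62, at 126, 124 and 98.1 CPM in Cont and 195, 218 and 300 in OA livers (1.03 ± 0.32). Of the other genes under 0.05 before adjustment, Map1lc3a (1.10 ± 0.41, adjusted p = 0.143) and Vamp8 (0.68 ± 0.28, 0.18) were also higher. Nbr1 (-0.91 ± 0.28, 0.081) and Gabarapl1 (-1.03 ± 0.36, 0.115) were lower, with all OA livers below all Cont livers. Map1lc3a, Vamp8, Nbr1 and Gabarapl1 were singled out after their values were seen.

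Summed levels of macrophage and monocyte marker genes were higher in OA livers than in both other groups, as were the lysosome genes that rose. For all genes tested, 2.40% rose and 2.80% fell in OA livers, and 1.26% fell with ZnPP. Of 10 Kupffer cell and macrophage markers 7 rose in OA livers with a median of 1.63, and 3 fell with ZnPP. Their summed level was 173 to 403 CPM in Cont, 830 to 1169 in OA and 291 to 432 in ZnPP+OA livers, so that OA livers overlapped neither other group. Of 10 markers of monocytes and recruited macrophages 5 rose in OA livers with a median of 2.03, and 5 fell with ZnPP. Their sums were 53.7 to 128, 249 to 515 and 79.8 to 135 CPM. Of 8 tested neutrophil markers 1 rose in OA livers, with a median of 2.21 and 5 at an unadjusted p under 0.05 in edgeR. The sums over all 10 neutrophil markers listed were 4.29 to 21.3, 20.7 to 68.9 and 12.9 to 17.7 CPM. The hepatocyte and Kupffer cell markers were detected in every liver, whereas Ly6c2, a monocyte marker, had no reads in Cont 2 and ZnPP+OA 2, and Ly6g, which defines neutrophils, had none in any Cont liver, in OA 1 or in ZnPP+OA 2. Of 8 hepatocyte genes 1 fell in OA livers, with a median of -0.82. Of 5 erythrocyte genes 1, Alas2, the first enzyme of heme synthesis in red cell precursors, fell in OA livers (adjusted p = 0.00116) and rose with ZnPP (0.0159), and was named after its values were seen. The median of the 5 was -1.18 in OA against Cont, with sums of 238, 895 and 279 CPM in Cont, 157 to 240 in OA and 176 to 182 in ZnPP+OA livers, so that Cont 2 stood apart. Of 6 endothelial, 6 stellate cell and 5 cholangiocyte markers 0 were called in either comparison, with medians in OA against Cont of -0.13, 0.18 and 0.59, smallest adjusted p of 0.219, 0.186 and 0.0999, and 1, 1 and 2 of them at an unadjusted p under 0.05. The part of these markers in the lysosome results was not tested.

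A group of 10 members is made mainly by leukocytes and osteoclasts: Cd68, Laptm5, Ctss, Ctsk, Ctsw, Ctsg, Slc11a1, Acp5, Atp6v0d2 and Tcirg1. Of the 9 tested, 5 rose in OA livers and 1 fell, with a median of 1.07, and 3 fell with ZnPP. Of the remaining 115 members 13 rose (11.3%) and 1 fell (0.870%), with a median of 0.47. With ZnPP 5 of the 115 fell (4.35%), with a median of -0.31. The shares of all genes tested were 2.40%, 2.80% and 1.26%. The genes that rose outside these 10 include Lgmn, Ctsb, Ctsd, Ctsz and Cd63, which are known from both hepatocytes and macrophages. Whole-liver values do not show which cells made any of these genes here, and which cells held the added transcripts was not tested.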

How the data were processed

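Liver RNA was sequenced as stranded, paired-end poly(A) libraries from 9 mice, 3 in each group. The authors deposited 1 table with raw counts and FPKM for each gene and library. Per the submitters' processing notes, the tools were HISAT2 2.2.1, StringTie 2.1.6, cutadapt 1.9, edgeR and DESeq2 and the build mm10, with no role given. Replicate numbers name mice and do not pair them (correlations of same-numbered libraries -0.10 to 0.01). Members were the rows with the KEGG entry Lysosome, put into classes by hand.

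Deposited counts were tested with edgeR 4.0.16 (R 4.3.3): filterByExpr (minimum count 10, minimum total 15), TMM scaling, 1 quasi-likelihood fit of the 3 groups and Benjamini-Hochberg adjustment over 18895 genes. Alternatives used other scalings and filters, DESeq2 1.42.0, and limma 3.58.1 on log2(FPKM + 1) or log2(FPKM + 0.1). Deposited FPKM values served for shares of summed level. Named genes were all members past the threshold in either comparison with OA, the members with the highest mean FPKM (to 3 in a class), proton pump genes with a mean FPKM of at least 1, the TFEB family, and up to 4 called genes of each companion list. Some genes that this rule names are not reported here. Members, classes and lists were chosen with earlier results of these data known. Promoter sequences came from RefSeq, and exon overlaps from GENCODE vM21. The table's coordinates were not used, because they did not appear to match the named build.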

Additional observations from a re-analysis of the deposited data

How the results depend on the processing

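In OA against Cont, where 18 lysosome genes rose and 2 fell, library totals alone gave 46 and 1, no filter on low counts 28 and 4, limma on log2(FPKM + 1) 89 and 0, limma on log2(FPKM + 0.1) 81 and 0, limma on log2(FPKM + 1) without a filter 64 and 1, and a fit of only the 6 compared libraries 10 and 0. At least 10 counts in every library gave 5 that fell and DESeq2 gave 6. Over all genes 880 of 11548 and 1603 of 18895 fell in these 2 fits. With no filter 1038 of 32309 genes rose and 1083 fell, and in the 6 libraries 221 of 17935 rose and 302 fell. The filtered limma fits tested 110 members, and Ctsw and Hyal3 were not among them. Leaving out single libraries gave 4 to 20 that rose and 0 to 3 that fell, while over all genes 100 to 656 rose and 142 to 716 fell. Leaving out Cont 1 and Cont 2 together, with 1 Cont liver left, gave a member median of 0.44. All 18 genes kept their direction in each of these alternatives. In ZnPP+OA against OA, where 8 fell and 0 rose, the number that fell was 73 by library totals, 14 with no filter and 15 with DESeq2. It was 99, 89 and 66 in the limma fits in the order above, 14 in 6 libraries and 0 to 13 with single libraries left out. The number that rose was 2 with no filter, 1 with at least 10 counts in every library, 4 with DESeq2 and 2 in 6 libraries. Over all genes 708 of 32309 rose and 762 fell with no filter, and 545 of 11548 and 321 with at least 10 counts. DESeq2 gave 1000 of 18895 and 627, and the 6 libraries 760 of 17743 and 730. With single libraries left out, 6 to 547 genes fell. Without Cont 1 and Cont 2 the member median was -0.36, against -0.31 in the main fit. The larger counts stand beside larger counts over all genes. In OA against Cont 2837 of 18895 genes rose by library totals, 7350 and 6394 of 10696 in the filtered limma fits and 6357 of 32307 in the limma fit without a filter. In these 4 fits 6315, 8163, 6864 and 7629 genes fell in ZnPP+OA against OA. The median of all genes in OA against Cont was 1.19 for log2(FPKM + 1), 1.83 for log2(FPKM + 0.1) and 1.48 for library totals, against 0.09 with TMM.

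With the replicate number as a block, 11 of the 18 genes that rose, 2 of the 2 that fell and 3 of the 8 that fell with ZnPP (Ctss, Laptm5 and Lgmn) were called. The numbers do not pair the mice, with correlations of same-numbered libraries from -0.10 to 0.01.

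Single genes near 0 changed sign in the limma fits. Tpp1 was 1.31 (adjusted p = 0.0458) in OA against Cont with log2(FPKM + 1), where the median of all genes was 1.19. In ZnPP+OA against OA, Acp2 was -1.52 with log2(FPKM + 1) and -1.75 with log2(FPKM + 0.1), and Dnase2a was -1.40, -1.75 and, without a filter, -1.40. The median of all genes in these fits was -1.27, -1.88 and, without a filter, -0.14. Under none of the alternatives run was a lysosome gene called in ZnPP+OA against Cont. Depth outside mitochondrial genes was lowest in Cont 2 (4946748 counts), and its part in the spread of the Cont group was not tested. This depth was higher in every OA liver than in every other liver, and its part in the comparisons with OA was not tested.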
